A study of Mus musculus with 8 samples.

Results

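The 10 genes described here encode insulin-like growth factors, their receptors and their binding proteins, and were measured in cultured mouse fibro-adipogenic progenitors (FAPs) after melatonin or vehicle. They were chosen by symbol (Igf1, Igf2, Igf1r, Igf2r and Igfbp2 to Igfbp7, each looked up by Ensembl ID in GENCODE M21), with 10 of 10 found among the 20781 genes of the count table and 10 of 10 abundant enough to be tested. FAPs are mesenchymal cells of skeletal muscle that support muscle stem cells and can turn into adipocytes or fibroblasts. The cells came from uninjured leg muscles (tibialis anterior, gastrocnemius and quadriceps) of wild-type male mice, given as C57BL/6 in one label and C57BL/6J in another, although the extraction protocol names longissimus dorsi. All were cultured for 48 h first. One group of 4 libraries then had vehicle for 24 h, the other group of 4 had melatonin for 24 h, and both are called biological replicates in the labels. The sources used here give no age, vehicle or melatonin dose.

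Insulin-like growth factors are small secreted peptides related to insulin. IGF1 and IGF2 signal through the IGF1 receptor, a tyrosine kinase that feeds the PI3K-AKT and MAPK pathways, while the IGF2 receptor carries IGF2 to the lysosome for breakdown. In the extracellular space most of the peptide is held by binding proteins of the IGFBP family, and proteases such as pregnancy-associated plasma protein A (PAPP-A) cut these to release it. In skeletal muscle IGF1 is known for promoting growth and repair, and FAPs and macrophages are among the cells that secrete it.

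Library totals ran from 35584931 to 52401153 counts, and the 10 genes held from 695 to 401024 counts per library. Melatonin replicate 4 stood apart, at -37.7 on the second principal component (13.3% of variance) where the other 3 melatonin libraries lay between 13.8 and 15.3. All 10 FAP markers were detected, with Pdgfra, the surface receptor that defines these cells, at 569.6 ± 52.2 CPM with vehicle and 465 ± 74.0 CPM with melatonin (SD, n = 4, edgeR adjusted p = 0.084), and Ly6a, which encodes SCA1, lower with melatonin (336 ± 32.8 to 224 ± 21.8 CPM). CPM is the gene's count scaled to a common library size with TMM factors. The summed level of the FAP list was 2122 to 2169 CPM with vehicle and 1264 to 1495 with melatonin, and 1 of its 10 genes rose, 5 fell and 4 did not pass. For comparison with the marker counts, 18.1% of all 16565 tested genes rose and 18.5% fell at an edgeR adjusted p under 0.05. Named after their values were seen, Dcn, which encodes decorin, fell from 911 ± 84.5 to 351 ± 42.0 CPM and made up most of the difference in the sum, and Col15a1, a collagen gene, rose from 22.3 ± 4.29 to 102 ± 23.5 CPM. That of 5 adipocyte markers was 112 to 119 and 676 to 852 CPM, and all 5 rose (Adipoq from 31.2 ± 1.60 to 133 ± 4.33 CPM). The sums in the same order were measured for 11 macrophage markers (525 to 795 and 351 to 656 CPM), 7 myogenic markers (126 to 167 and 104 to 326), 6 endothelial markers (30.2 to 37.6 and 48.8 to 56.8), 5 mural markers (74.4 to 102 and 73.4 to 107), 3 tendon markers (42.1 to 49.8 and 27.7 to 48.0) and 4 Schwann cell markers (10.02 to 12.9 and 12.4 to 16.4). Csf1r (29.0 ± 4.88 to 17.2 ± 5.35 CPM) and Rgs5 (2.49 ± 0.483 to 0.875 ± 0.273) fell, while Adgre1 (61.5 ± 14.5 and 50.7 ± 16.5) and Pecam1 (3.53 ± 0.754 and 4.80 ± 0.886) did not pass. Of the 5 mural markers 2 rose and 1 fell, the higher ones being Kcnj8 (0.315 ± 0.189 to 0.936 ± 0.0879 CPM) and Abcc9 (2.11 ± 0.284 to 5.49 ± 1.32 CPM), named after their values were seen. Of the 6 endothelial markers 1 rose and 0 fell, the higher one being Tek (17.1 ± 1.51 to 35.3 ± 3.61 CPM). Of the 7 myogenic markers 2 rose and 0 fell, Itga7 (24.1 ± 1.55 to 31.3 ± 5.15 CPM) and Acta1 (50.6 ± 5.83 to 110 ± 46.8 CPM). Tek, Itga7 and Acta1 were also named after their values were seen. The fall of Csf1r lost its call without vehicle replicate 2, vehicle replicate 3 or melatonin replicate 2 (adjusted p = 0.068 to 0.084), with library totals alone (0.067) and at a threshold of 0.01. Pecam1 was called higher with library totals alone (log2 fold change of 0.60, edgeR adjusted p = 0.025). Pax7, which marks muscle stem cells, was not analysed here. The part of these marker differences in the results below was not tested, and in bulk RNA fewer cells of a type and less RNA per cell cannot be told apart.

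With melatonin, Igf1 and Igfbp4 were higher, and Igf1r and the other 5 binding protein genes were lower. In the fit across all genes 8 of the 10 passed at an edgeR adjusted p under 0.05, against 36.5% of all 16565 genes tested and 44.1% of the 5013 genes with a mean CPM at or above the lowest of the 10. There were 2 higher genes, against 18.1% of all tested genes and 19.9% of those 5013, and 6 lower ones, against 18.5% and 24.2%. The same 8 genes had no overlap between the 4 libraries of one group and the 4 of the other, which held for 37.7% of tested genes (18.5% higher and 19.2% lower). The median size of the log2 fold change was 0.68 over the 10 genes and 0.30 over all tested genes. Fold changes below are melatonin over vehicle ± standard error, levels are mean ± SD over 4 libraries, and adjusted p-values are those of edgeR's quasi-likelihood test over all tested genes.

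**Figure D1:**
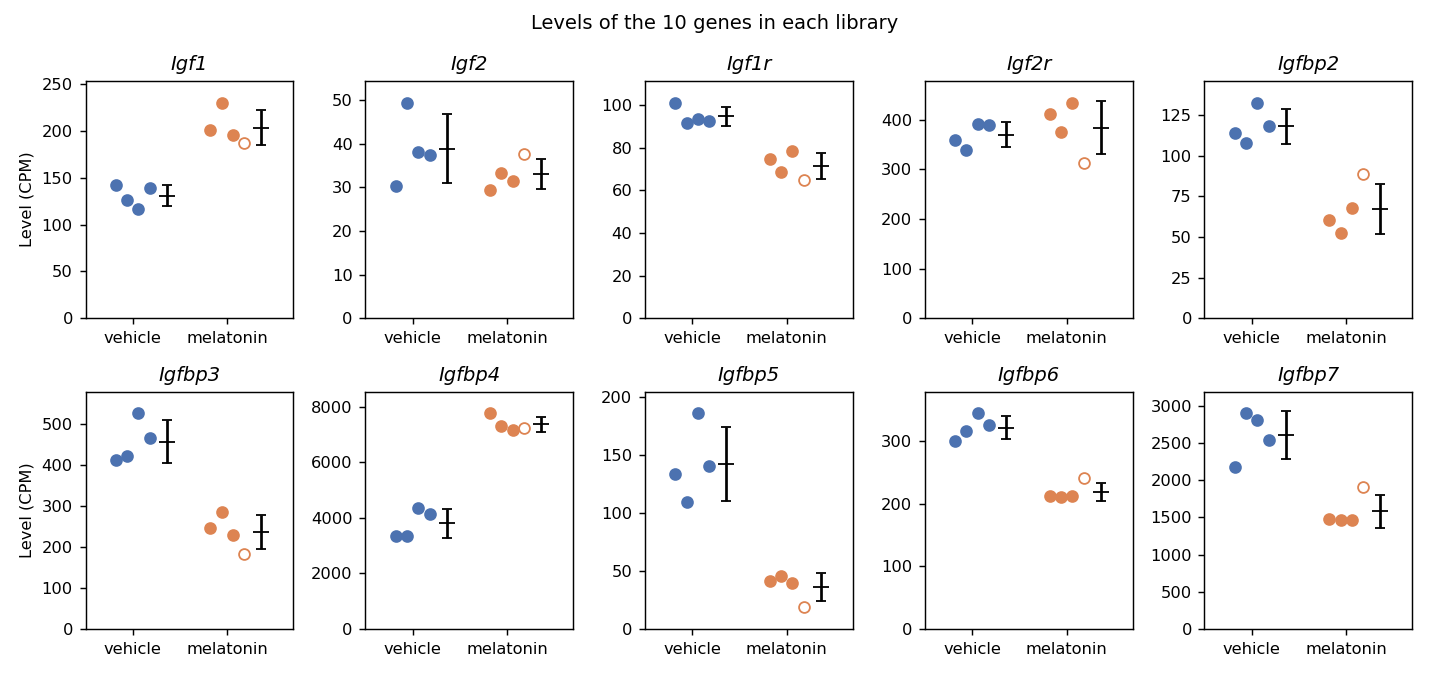
Level of each of the 10 genes in CPM (vertical axes from 0) in the 4 vehicle libraries (blue) and the 4 melatonin libraries (orange, replicate 4 as an open circle), with the mean and SD as black bars. The groups do not overlap for 8 genes and overlap for Igf2 and Igf2r.

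Among the ligands, Igf1 rose. This gene (ENSMUSG00000020053, at chr10:87858265-87937042 on the plus strand, GRCm38 as for all positions here) encodes the growth hormone-inducible factor. Vehicle replicates 1 to 4 held 142, 126, 117 and 139 CPM, and melatonin replicates 1 to 4 held 201, 231, 195 and 188 CPM. Every melatonin library lay above every vehicle library, by a mean of 131 ± 11.6 against 204 ± 18.7 CPM, and the log2 fold change of 0.64 ± 0.087 (adjusted p = 3.6e-04) was 1.55-fold. Igf1 is also made by macrophages and adipocytes. Among the 11 macrophage markers Mrc1, C1qa, C1qb and C1qc rose and Csf1r and Cd14 fell, named after their values were seen apart from Csf1r. The part of macrophages and adipocytes in the Igf1 difference was not tested.

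Igf2, the fetal growth factor gene (ENSMUSG00000048583, at chr7:142650766-142666816 on the minus strand), did not pass. Its levels were 30.2, 49.4, 38.1 and 37.4 CPM with vehicle and 29.4, 33.3, 31.5 and 37.6 CPM with melatonin. The groups overlapped, and the log2 fold change of -0.23 ± 0.14 (adjusted p = 0.22) had a 95% interval of -0.55 to 0.08, which includes 0. The annotation places a readthrough gene, Gm49394, over 3596 exon bases of Igf2 on the same strand. How reads over those bases were assigned is not stated, so the level of Igf2 is uncertain. Per kilobase of exon, Igf1 stood above Igf2 in every library, by ratios of 2.72, 1.48, 1.77 and 2.15 with vehicle and 3.95, 4.00, 3.59 and 2.88 with melatonin.

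Across the 8 libraries, the genes whose centred log2 levels lay nearest to those of Igf1, among 9267 genes of at least 10 CPM, were mt-Nd5, Cdk10 and mt-Atp8, at Euclidean distances of 0.196, 0.203 and 0.211 (the median gene lay at 1.03). The cyclin-dependent kinase gene Cdk10 went from 12.6 ± 1.14 to 20.0 ± 1.77 CPM and the mitochondrially encoded mt-Nd5 from 1041 ± 93.2 to 1706 ± 156 CPM. The share of counts from the mitochondrial genome was 1.05% to 1.3% with vehicle and 2.09% to 2.44% with melatonin. The genes nearest to Igf2 were Slc35a2, Mpg and Commd4, at 0.285, 0.307 and 0.312, where the median gene lay at 0.849. The distance compares patterns over the 8 libraries and takes no account of the level.

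The receptors differed from each other. Igf1r, the signalling receptor gene (ENSMUSG00000005533, at chr7:67952827-68233668 on the plus strand), fell. Its levels were 101, 91.6, 93.6 and 92.5 CPM with vehicle and 74.7, 68.8, 78.3 and 64.6 CPM with melatonin. All melatonin libraries were below all vehicle libraries, with a log2 fold change of -0.40 ± 0.074 (adjusted p = 0.0020), or 1.32-fold lower. Igf2r, the lysosomal sorting receptor gene (ENSMUSG00000023830, at chr17:12682406-12769664 on the minus strand), held 359, 339, 392 and 388 CPM with vehicle and 412, 376, 434 and 313 CPM with melatonin. It was highest in melatonin replicate 3 and lowest in melatonin replicate 4, so the groups overlapped, and its log2 fold change of 0.05 ± 0.10 (adjusted p = 0.72) had a 95% interval of -0.17 to 0.28. Without melatonin replicate 4 its log2 fold change was 0.15 (adjusted p = 0.12). Per kilobase of exon, Igf2r exceeded Igf1r in every library, 6.40-fold to 7.58-fold with vehicle and 8.75-fold to 10.01-fold with melatonin. These ratios rest on the lengths of all exons together, 16791 bases for Igf1r and 9308 for Igf2r. The longest transcripts have 11409 and 8887 bases, which would make the ratios smaller.

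The binding protein genes moved in opposite directions. Igfbp4 rose, while Igfbp2, Igfbp3, Igfbp5, Igfbp6 and Igfbp7 fell. The promoters of the gene that rose and of those with the largest falls (Igfbp5 and Igfbp3) are shown here as the 250 bases before the RefSeq start site on GRCm38.p6, 5′ to 3′ on the gene's strand. Capitals mark matches on either strand to any of 5 short motifs, the TATA box TATAAA, the CCAAT box, the hypoxia response element core ACGTG, the Sp1 motif GGGCGG and the partial C/EBP motif TTGCG. The windows are chr11:99040994-99041243 (plus strand) for Igfbp4, chr1:72874866-72875115 (minus strand) for Igfbp5 and chr11:7213924-7214173 (minus strand) for Igfbp3.
Igfbp4: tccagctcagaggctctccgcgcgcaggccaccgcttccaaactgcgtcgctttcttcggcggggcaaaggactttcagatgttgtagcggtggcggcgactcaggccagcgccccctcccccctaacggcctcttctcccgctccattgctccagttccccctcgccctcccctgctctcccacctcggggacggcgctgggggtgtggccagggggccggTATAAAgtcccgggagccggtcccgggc
Igfbp5: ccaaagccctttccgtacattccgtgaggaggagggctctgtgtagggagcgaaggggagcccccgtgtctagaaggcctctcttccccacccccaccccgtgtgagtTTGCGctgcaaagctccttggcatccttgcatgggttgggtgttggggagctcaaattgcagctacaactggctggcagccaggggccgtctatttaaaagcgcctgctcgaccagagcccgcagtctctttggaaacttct
Igfbp3: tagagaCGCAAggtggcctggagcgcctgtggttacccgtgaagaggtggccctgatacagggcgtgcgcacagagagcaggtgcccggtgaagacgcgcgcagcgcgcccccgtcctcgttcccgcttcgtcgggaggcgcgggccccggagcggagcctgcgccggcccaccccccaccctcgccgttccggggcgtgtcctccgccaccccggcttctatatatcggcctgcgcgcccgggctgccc
The Igfbp4 window holds TATAAA beginning 28 bases before the start, a motif present in 12.4% of 32851 windows of this length. The window of Igfbp6, which fell, also matches it, on the opposite strand and beginning 148 bases before the start. Only the exact string TATAAA was matched, so the similar tatata of the Igfbp3 window and tatttaaa of the Igfbp5 window are not marked. The Igfbp5 and Igfbp3 windows each hold TTGCG on 1 strand, beginning 142 and 244 bases before the start, as do 14.5% of windows. The CCAAT box, the hypoxia core and the Sp1 motif, which occur in 33.8%, 16.6% and 32.7% of windows, are not in these 3. Other binding protein genes that fell do hold them, the CCAAT box in Igfbp6 and the other motifs in Igfbp2 and Igfbp7. The G+C content is 69.2% for Igfbp4, 58.8% for Igfbp5 and 73.2% for Igfbp3, and the median window has 52.4%. RefSeq windows were found for 10 of the 10 genes, some with several start sites, and a match describes letters only.

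Igfbp4 encodes a binding protein that restrains IGF action until PAPP-A cuts it (ENSMUSG00000017493, at chr11:99041244-99054392 on the plus strand). It held 3356, 3343, 4344 and 4154 CPM with vehicle and 7764, 7304, 7181 and 7229.5 CPM with melatonin. The lowest melatonin library stood well above the highest vehicle library, and the 4 melatonin values lay close together. The mean went from 3799 ± 525 to 7369.6 ± 268 CPM, a log2 fold change of 0.96 ± 0.097 (adjusted p = 5.4e-05) or 1.94-fold. Igfbp4 ranked 11 of 20781 genes by mean CPM, which also follows gene length, and its part of all counts was 0.36% with vehicle and 0.780% with melatonin.

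Igfbp5 had the largest change of the 10 genes. It encodes a matrix-bound binding protein known in muscle and fibrotic tissue (ENSMUSG00000026185, at chr1:72857932-72874884 on the minus strand). Levels were 134, 109.6, 186 and 141 CPM with vehicle and 41.3, 45.6, 39.5 and 18.6 CPM with melatonin. Melatonin replicate 4 was the lowest of all, and the other 3 melatonin libraries were still below every vehicle library. The log2 fold change was -1.97 ± 0.29 (adjusted p = 0.0012), 3.93-fold lower, and -1.75 (adjusted p = 1.8e-04) without melatonin replicate 4. The biological coefficient of variation of Igfbp5 was 27.8%, larger than that of 83.7% of tested genes, whereas those of the other 9 genes ran from 10.3% (Igfbp6) to 16.1% (Igfbp2).

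Igfbp2 lies next to Igfbp5 on chromosome 1 (ENSMUSG00000039323, at chr1:72824503-72852474 on the plus strand), with the 3′ ends facing each other across 5457 bases. It encodes a binding protein that can also bind integrins. It held 114, 107, 133 and 118 CPM with vehicle and 60.3, 52.3, 67.8 and 88.5 CPM with melatonin. All melatonin values were lower, melatonin replicate 4 being the nearest to the vehicle group, opposite to its place for Igfbp5. The log2 fold change was -0.81 ± 0.15 (adjusted p = 0.0021), 1.76-fold lower, and -0.96 (adjusted p = 4.5e-05) without melatonin replicate 4.

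Igfbp3, whose product is the main carrier of IGF in blood (ENSMUSG00000020427, at chr11:7206086-7213923 on the minus strand), fell from 457 ± 52.3 to 236 ± 42.2 CPM. Its levels were 411, 422, 526 and 467 CPM with vehicle and 247, 285, 229.7 and 183 CPM with melatonin, again without overlap. The log2 fold change was -0.95 ± 0.13 (adjusted p = 4.0e-04), 1.93-fold lower. Per kilobase, Igfbp4 exceeded Igfbp3 5.61-fold to 6.30-fold with vehicle and 18.2-fold to 27.97-fold with melatonin.

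Igfbp6, whose product prefers IGF2 over IGF1 (ENSMUSG00000023046, at chr15:102144362-102149511 on the plus strand), held 300.3, 315, 344 and 325 CPM with vehicle and 213, 209.8, 212 and 240.4 CPM with melatonin. The groups did not overlap, and melatonin replicate 4 lay above the other melatonin libraries. The log2 fold change was -0.56 ± 0.070 (adjusted p = 2.1e-04), 1.47-fold lower, and -0.59 without melatonin replicate 4.

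Igfbp7 encodes a secreted relative that binds IGFs weakly and insulin as well (ENSMUSG00000036256, at chr5:77349240-77408041 on the minus strand). It held 2172, 2898, 2807 and 2536 CPM with vehicle and 1475, 1462, 1469 and 1912 CPM with melatonin. Melatonin replicate 4 again lay nearest to the vehicle libraries without reaching them. The log2 fold change was -0.72 ± 0.12 (adjusted p = 0.0010), 1.65-fold lower, and -0.82 (adjusted p = 8.6e-05) without melatonin replicate 4. Igfbp7 ranked 33 by the same measure. The gene Polr2b on the other strand shares 85 exon bases with it, and held 21126 counts in the 8 libraries together.

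**Figure D2:**
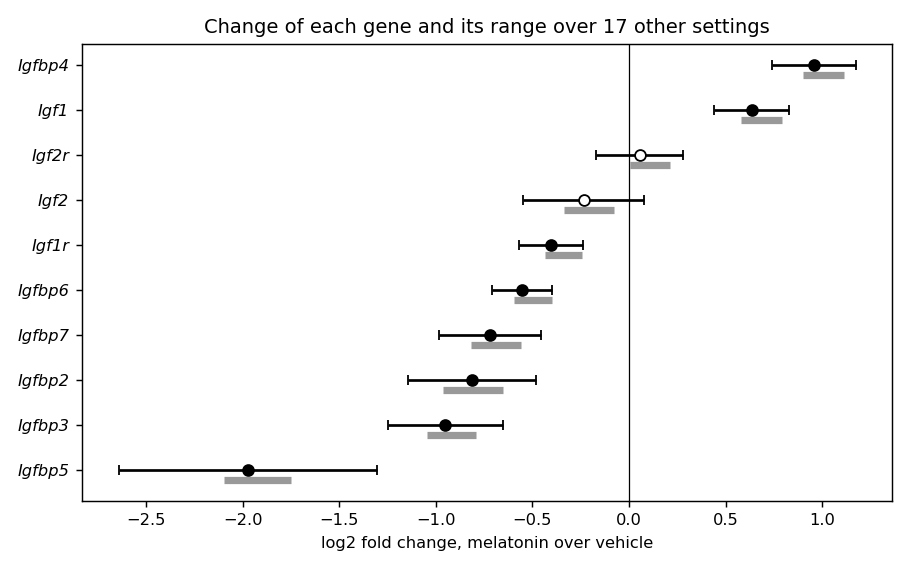
Log2 fold change (horizontal axis, melatonin over vehicle) of each gene with its 95% interval, filled where the edgeR adjusted p was under 0.05, and below each the range over 17 other settings (grey). In all settings Igfbp4 and Igf1 lie right of 0 and the 6 genes that fell lie left of it. The ranges of Igf2 (-0.34 to -0.076) and Igf2r (0.0034 to 0.21) also keep to 1 side, but their 95% intervals span 0.

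Because genes differ in length, levels between genes were compared as CPM per kilobase of exon. The length is that of all annotated exons together, and the order was not repeated with the longest transcript. With vehicle the order was Igfbp7 (2153 ± 270 CPM per kilobase), Igfbp4 (860.4 ± 119), Igfbp6 (289 ± 16.4), Igfbp3 (146 ± 16.7), Igfbp2 (63.9 ± 5.76), Igf2r (39.7 ± 2.70), Igfbp5 (23.8 ± 5.33), Igf1 (13.2 ± 1.18), Igf2 (6.78 ± 1.38) and Igf1r (5.64 ± 0.262). Only the last neighbours, Igf2 and Igf1r, had overlapping ranges over the vehicle libraries. With melatonin the order was Igfbp4 (1669 ± 60.7), Igfbp7 (1307 ± 183), Igfbp6 (197 ± 13.1), Igfbp3 (75.5 ± 13.5), Igf2r (41.2 ± 5.68), Igfbp2 (36.4 ± 8.42), Igf1 (20.6 ± 1.89), Igfbp5 (6.04 ± 2.003), Igf2 (5.76 ± 0.605) and Igf1r (4.26 ± 0.361). There Igf2r could not be separated from Igfbp2, nor Igfbp5 from Igf2, by their ranges. The first place passed from Igfbp7 to Igfbp4, whose ratio to Igfbp7 was 0.423, 0.316, 0.424 and 0.448 with vehicle and 1.44, 1.37, 1.34 and 1.04 with melatonin.

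Of the summed level per kilobase of the 6 binding protein genes, Igfbp4 made up 24.4% ± 2.48 with vehicle and 50.8% ± 3.20 with melatonin. Igfbp7 made up 60.8% ± 3.27 and 39.6% ± 3.41, and Igfbp6 8.20% ± 0.483 and 5.97% ± 0.125. The smaller shares were those of Igfbp3 (4.13% ± 0.297 and 2.31% ± 0.5), Igfbp2 (1.82% ± 0.179 and 1.1% ± 0.203) and Igfbp5 (0.672% ± 0.129 and 0.186% ± 0.067). The sum itself was 3042, 3649, 3885 and 3568 CPM per kilobase with vehicle and 3288, 3179, 3148 and 3544.5 with melatonin, with the groups overlapping. Without Igfbp4, the only one of these genes that rose, the sum was 2282, 2892, 2902 and 2627 with vehicle and 1530.1, 1525, 1522 and 1907 with melatonin. Each gene left in that sum fell without overlap by itself, so the lack of overlap in the sum follows from that and is no further result. The binding protein sum exceeded the sum of Igf1 and Igf2 by 155, 171, 210.2 and 173 times with vehicle and by 129, 109, 125 and 139 times with melatonin. These are transcript levels, described without a test because the genes were chosen as a set.

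**Figure D3:**
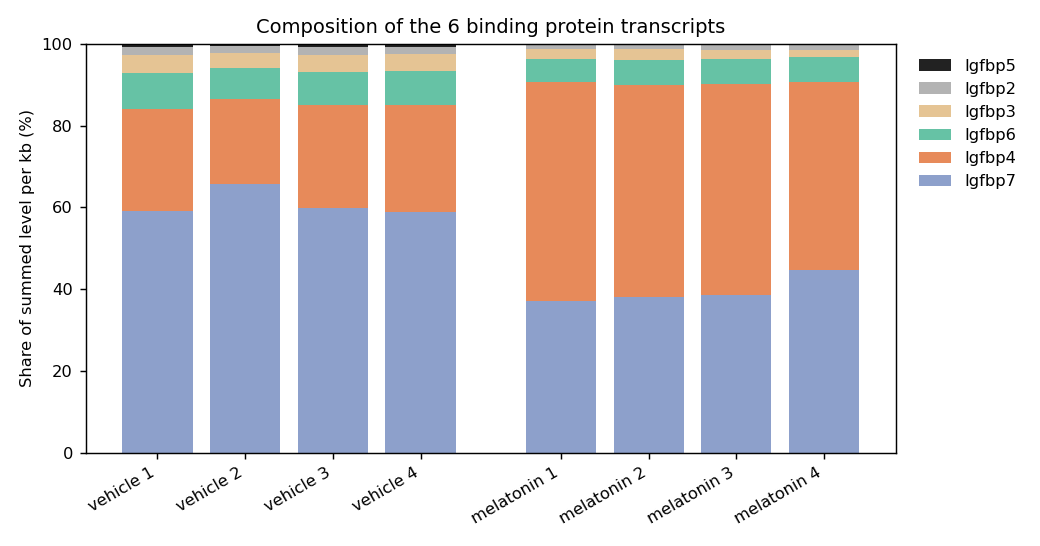
Share (vertical axis, %) of each binding protein gene in their summed level per kilobase of exon, as stacked bars for the 4 vehicle and the 4 melatonin libraries. Igfbp4 takes 20.7% to 26.4% of each vehicle bar and 46.2% to 53.5% of each melatonin bar.

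Other genes of the system were followed in 6 lists, in which 16 of 73 tested genes rose and 19 fell, against 18.1% and 18.5% of all tested genes. Their median log2 fold change was -0.03, and that of all tested genes was 0.01.

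Of 8 tested genes for proteases that cut binding proteins and for their inhibitors, 3 rose and 4 fell, against 18.1% and 18.5% of all tested genes. The stanniocalcin genes Stc1 and Stc2, whose products inhibit PAPP-A, fell from 27.0 ± 1.56 to 9.53 ± 1.58 CPM and from 23.4 ± 2.88 to 7.39 ± 0.804 CPM (log2 fold changes of -1.5 ± 0.12 and -1.66 ± 0.12, adjusted p = 1.5e-05 and 6.8e-06). Adam12, a metalloprotease gene whose product cuts IGFBP3 and IGFBP5, rose from 105 ± 8.17 to 216 ± 34.0 CPM (1.04 ± 0.12, adjusted p = 9.5e-05). Htra1, a secreted serine protease gene, rose from 189 ± 15.5 to 252.5 ± 13.0 CPM (0.41 ± 0.075, adjusted p = 0.0018). The remaining members are named after their values were seen. Pappa, which encodes PAPP-A itself, was at 35.7 ± 3.08 and 39.97 ± 8.66 CPM and did not pass (adjusted p = 0.42), whereas its relative Pappa2 fell (-1.78 ± 0.29) at a low level of 2.20 ± 0.274 to 0.637 ± 0.282 CPM. The lysosomal protease gene Ctsd rose (0.28 ± 0.066). Adam9 fell (-0.59 ± 0.16), a call lost without melatonin replicate 3 (adjusted p = 0.051) and at a threshold of 0.01.

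Upstream of Igf1, 2 of 8 tested genes of the growth hormone axis rose and 3 fell, against 18.1% and 18.5% of all tested genes. Ghr, the growth hormone receptor gene, rose from 70.4 ± 2.63 to 112 ± 13.6 CPM (0.66 ± 0.089, adjusted p = 3.1e-04), and Socs2, a feedback inhibitor gene of that receptor, from 17.6 ± 1.54 to 24.96 ± 1.52 CPM (0.51 ± 0.087, adjusted p = 0.0014). Jak2, which encodes the kinase that the receptor shares with many cytokine receptors, fell from 169 ± 19.1 to 47.6 ± 6.11 CPM (-1.82 ± 0.11, adjusted p = 3.2e-06). Socs3, a cytokine-induced inhibitor gene, fell from 126.5 ± 4.46 to 69.3 ± 6.82 CPM (-0.87 ± 0.077). Socs1, named after its values were seen, fell (-1.36 ± 0.32). It lost its call without melatonin replicate 4 (adjusted p = 0.052) and at a threshold of 0.01.

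Downstream of the receptors, 6 of 30 tested genes of IGF1 receptor signalling rose, 5 fell and 19 did not pass, which is near the share of calls among all tested genes (36.5%). The adaptor gene Irs1, which links the IGF1 and insulin receptors to PI3K, rose from 35.9 ± 1.37 to 57.4 ± 8.22 CPM (0.68 ± 0.10, adjusted p = 5.5e-04), and Foxo1, encoding a transcription factor held out of the nucleus by AKT, from 18.3 ± 1.3 to 26.2 ± 1.44 CPM (0.52 ± 0.081, adjusted p = 7.2e-04). Grb14, an inhibitory adaptor gene, fell from 64.0 ± 3.64 to 43.2 ± 2.66 CPM (-0.57 ± 0.071, adjusted p = 2.0e-04). Akt1, named after its values were seen, was at 397 ± 10.2 and 405 ± 8.51 CPM (0.03 ± 0.054, adjusted p = 0.70). The split of this list depends on scaling, since with library totals alone 13 members were higher and 2 lower. Akt1 was then among the higher ones (0.19, adjusted p = 0.014).

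In the wider family, 2 of 6 tested genes fell and 0 rose, where 36.5% of all tested genes were called in either direction and 18.5% fell. Insrr, encoding an orphan relative of the insulin receptor, was at 0.613 ± 0.273 CPM with vehicle and 0.0498 ± 0.0359 with melatonin (-3.46 ± 0.60, adjusted p = 0.0015), with 124 counts in all 8 libraries and none in 1 melatonin library. Igf2bp1, encoding an RNA-binding protein named for Igf2 mRNA, went from 3.64 ± 0.637 to 2.28 ± 0.415 CPM (-0.67 ± 0.18, adjusted p = 0.015). The groups overlapped for Igf2bp1, and its call was lost at a threshold of 0.01. The insulin receptor gene Insr, named after its values were seen, ranged from 10.7 to 32.9 CPM with vehicle and from 12.2 to 30.3 with melatonin (adjusted p = 0.67). Igfbp1, the neighbour of Igfbp3, was not analysed here.

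Of 12 imprinted growth genes, the group to which Igf2 belongs, 5 rose and 7 did not pass. Of all tested genes 36.5% were called in either direction and 18.1% rose. Mest rose from 8.30 ± 1.46 to 25.5 ± 6.34 CPM (1.62 ± 0.19, adjusted p = 1.4e-04) and Peg3 from 11.1 ± 0.909 to 21.5 ± 3.20 CPM (0.95 ± 0.12, adjusted p = 2.0e-04). The others that rose, named after their values were seen, were Plagl1 (1.31), Cdkn1c (1.09) and H19 (0.997 ± 0.17, adjusted p = 0.0018). H19, the noncoding RNA gene beside Igf2 that is expressed from the other parental allele, went from 78.5 ± 2.33 to 157 ± 43.1 CPM while Igf2 did not pass.

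Among 9 genes for receptors and surface partners of the binding proteins, 5 fell and 4 did not pass, where 18.5% of all tested genes fell. Sdc4, a heparan sulfate proteoglycan gene, fell from 238 ± 26.2 to 127 ± 10.5 CPM (-0.90 ± 0.092, adjusted p = 5.6e-05). Itga5, encoding the alpha chain of the fibronectin receptor, fell from 297 ± 7.03 to 209 ± 7.82 CPM (-0.51 ± 0.056, adjusted p = 9.2e-05). The other 3, named after their values were seen, were the integrin genes Itgb1 (-0.53) and Itgav (-1.29) and the syndecan gene Sdc1 (-0.32). Sdc1 lost its call under 9 settings, among them the removal of vehicle replicates 2, 3 or 4 or of melatonin replicates 1, 2 or 3 (adjusted p = 0.071 to 0.099).

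**Figure D4:**
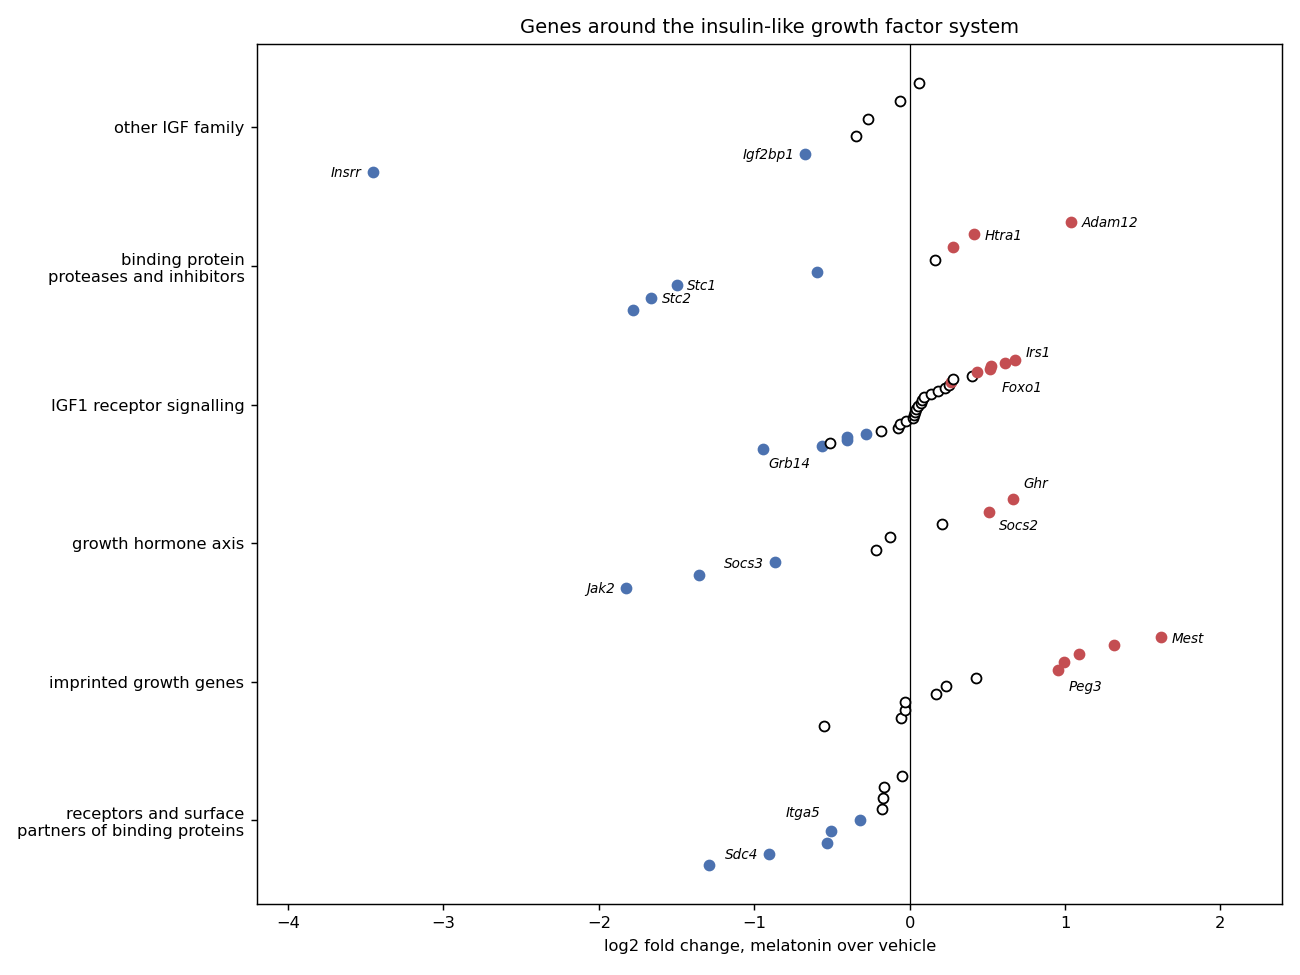
Log2 fold change (horizontal axis, melatonin over vehicle) of each of 73 tested genes in 6 lists, each point being 1 gene, red where higher and blue where lower at an edgeR adjusted p under 0.05 and open where it did not pass. Points are spread vertically within a list for legibility, and 17 of them are named, from Insrr at -3.46 to Mest at 1.62.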

How the data were processed

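RNA of 8 libraries, 4 per group, was counted per Ensembl gene. The authors deposited whole-number counts, and per the submitters' processing notes used HISAT2 2.0 with build mm10 (GRCm38), Trimmomatic 0.36 and FastQC 0.11.2, and also name StringTie 1.3.3b, DESeq2 1.12.4 and bedtools 2.26.0. The sources used here name no counting program, annotation or use of strand, so reads of overlapping or antisense genes cannot be told apart. Columns prefixed mel were read as melatonin and those prefixed con as vehicle. Each gene in the table has at least 11 counts over the 8 libraries.

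Symbols, positions and union exon lengths came from GENCODE M21 (20720 of 20781 IDs found). Genes were kept with filterByExpr (16565 tested, 4216 not) and scaled with TMM factors (0.916 to 0.974 with vehicle, 1.05 to 1.08 with melatonin). They were tested with edgeR 4.0.16 (R 4.3.3), robust quasi-likelihood with group as the only term and Benjamini-Hochberg adjustment at 0.05. The standard error is the size of the log2 fold change divided by the square root of F. Replicate pairs differed by more than counting noise (chi-square per gene of 23.5 to 74.4). Promoters came from RefSeq. The fits were checked on simulated counts in which few genes changed and no library stood apart, unlike in these data.

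All 10 members are named. Of each list the 2 higher and the 2 lower passing genes with the smallest p are named (1 is not reported here), with 3 nearest genes for each ligand and 8 markers. Members, lists and rules were chosen with earlier results of these data known. Other settings were a threshold of 0.01, other filters and scalings, leaving out each library, a replicate block, limma 3.58.1 (voom) and DESeq2 1.42.0. The set of 5013 genes used as a background was chosen after seeing the data.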

Additional observations from a re-analysis of the deposited data

Results flagged for a closer look

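Of 20 combinations of gene and group checked, 2 had a sample far from the other 3, and chance gives such a gap in about 1 of 20. Both were melatonin replicate 4. Its Igfbp6 level of 240.4 CPM lay above the other melatonin libraries (209.8 to 213 CPM), and its Igfbp7 level of 1912 CPM lay above theirs (1462 to 1475 CPM). Both values were still below every vehicle library, and both genes were lower with melatonin with and without that library. The cause was not tested.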

How the results depend on the processing

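All 10 members kept their direction and their side of the threshold in all 17 other settings, with 2 higher and 6 lower in each, against 23.3% to 44.3% of all genes called. Leaving out 1 library at a time gave log2 fold changes from 0.58 to 0.68 for Igf1, 0.90 to 1.03 for Igfbp4, -2.1 to -1.75 for Igfbp5, -1.04 to -0.84 for Igfbp3, -0.96 to -0.70 for Igfbp2, -0.82 to -0.67 for Igfbp7, -0.59 to -0.52 for Igfbp6 and -0.44 to -0.35 for Igf1r. Those of Igf2 (-0.34 to -0.10) and Igf2r (0.0034 to 0.15) did not pass. Scaling by library totals alone moved the median of all genes from 0.01 to 0.17. It raised the share of calls that were higher from 49.4% to 69.5% (5099 genes), and gave 13 higher and 2 lower genes of IGF1 receptor signalling. A threshold of 0.01 left 1754 higher genes, 2 lower genes of that list and 1 lower gene of the wider family, Insrr. The stricter filter on low counts left 1 there too, Igf2bp1, since Insrr was not tested under it. Without 1 library the signalling list had 3 to 6 lower genes, with 3 when vehicle replicate 1 or melatonin replicate 1 was left out. With the length of the longest transcript, the share of Igfbp2 was 2.42% with vehicle and 1.43% with melatonin, that of Igfbp3 was 5.03% with vehicle, and that of Igfbp6 was 5.47% with melatonin. The labels do not say whether the replicate numbers pair the libraries. No pairing was seen (correlation of same-numbered deviations of -0.07 to 0.04, and 0 of 8 libraries closest to their own number), though a weak one could be missed. With the replicate block 4942 genes were called in place of 6054. Of the named list genes, Sdc1 lost its call under the block (-0.33, adjusted p = 0.066).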
